A study of Homo sapiens with 8 samples.

Results

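The transcripts described here are 10 feedback and output genes of the mitogen-activated protein kinase (MAPK) pathway, picked by name from 57992 genes in the count data: the phosphatases DUSP4, DUSP5 and DUSP6, the Sprouty genes SPRY1, SPRY2 and SPRY4, the Sprouty-related genes SPRED1 and SPRED2, and the ETS transcription factors ETV4 and ETV5. The rule that picked them used gene names and no measured level, but the genes were chosen with earlier results of these data known. RNAseq was performed on RKO, an established human colon carcinoma line known to carry an activated BRAF allele. In total 8 samples were analysed, 4 with control siRNA and 4 with an siRNA against A20, the ubiquitin-editing enzyme encoded by TNFAIP3. All 8 samples received recombinant human wnt3a at 50 ng/mL for 24 hours, so no sample shows these genes without wnt3a, and the comparison asks whether MAPK output transcripts differ when A20 is knocked down in wnt3a-treated cells. The labels do not say whether the replicates were separate cultures, and the p-values measure only the spread between these samples, which may be technical.

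In the MAPK pathway, growth factor receptors activate RAS, which passes the signal through RAF and MEK kinases to ERK. ERK then induces a set of genes that hold it back: DUSP phosphatases remove the activating phosphates from ERK, Sprouty proteins interfere with signaling between receptors and RAF, and SPRED proteins block RAS and RAF. ETV4 and ETV5 are transcription factors that ERK activity also induces and that carry out part of the response. In colon carcinoma these transcripts are widely read as a gauge of ERK output.

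Total counts per sample were between 21226451 and 34194273, and 3 counts, taken as the detection limit, corresponded to between 0.0875 and 0.141 CPM (a gene's reads relative to its library's size, adjusted by edgeR's TMM factors). Such limits cover counting error only. TNFAIP3, the targeted gene, was at 4.92, 5.83, 5.59 and 5.54 CPM in control replicates 1 to 4 and at 3.47, 3.01, 3.40 and 3.43 CPM with A20 siRNA. The groups did not overlap, with a fitted difference of -0.71 on the log2 scale (adjusted p = 0.00258 from edgeR), and the comparison rests on this knockdown to 61.0% of the control transcript. Of 7 epithelial markers KRT8, KRT18, EPCAM and CDX2 were detected, while KRT19 and CDH1 had no count and VIL1 at most 1 read per sample. Of 7 leukocyte, endothelial and fibroblast markers, 4 had any count. The 7 summed to 0.783 to 1.52 CPM in control samples, against 0.819 to 1.22 CPM after A20 siRNA. Almost all of this was CD68, at 0.783 to 1.44 and 0.737 to 1.22 CPM, and COL1A1, PECAM1 and PDGFRB had at most 4 reads per sample.

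All 10 genes were expressed, but over a wide range. Divided by exonic length (CPM per kb), the mean level over the 8 samples ran from 0.249 for DUSP4 to 114.2 for SPRY4, a 458.2-fold span. SPRY4 was between 110.6 and 120.1 CPM per kb in every sample and made up 41.2% to 44.4% of the summed length-scaled level of the 10 genes. DUSP5 followed at 40.8 to 45.4 CPM per kb, without overlap with SPRY4. Next came SPRED2 (22.7 to 24.3 CPM per kb), DUSP6 (21.99 to 24.6) and ETV5 (22.3 to 23.2), whose ranges overlapped, so their order is not beyond the spread between samples. ETV4 (19.8 to 21.6 CPM per kb), SPRED1 (9.99 to 11.1), SPRY2 (6.36 to 7.25), SPRY1 (1.63 to 2.29) and DUSP4 (0.220 to 0.304) each lay below the gene before them in all 8 samples. Against all tested genes with a known length, SPRY4 stood at percentile 97.9, DUSP5 at 92.7 and DUSP4 at 7.26. Transcript levels per kb therefore differed between paralogs. The mean level per kb of SPRY4 was 16.9 times that of SPRY2 and 60.2 times that of SPRY1, that of DUSP5 was 174.3 times that of DUSP4, and that of SPRED2 was 2.26 times that of SPRED1. With the length of the longest transcript in place of all exons, ETV5 (32.1 CPM per kb) and ETV4 (31.4) moved above SPRED2 (28.7) and DUSP6 (24.8), and the other 6 genes kept their ranks.

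**Figure D1:**
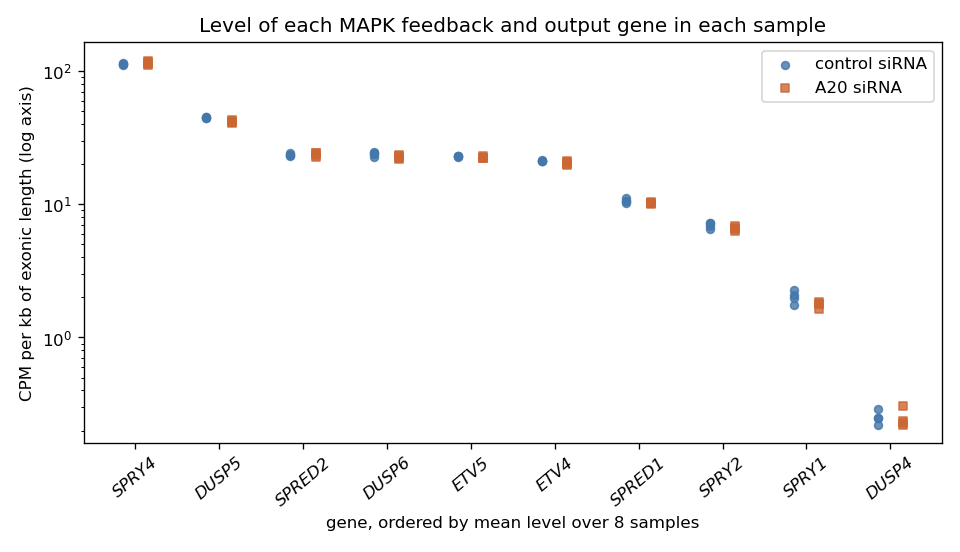
Level of each gene in each sample as CPM per kb of exonic length on a log axis, with circles for control siRNA and squares for A20 siRNA (4 samples each). SPRY4 lies at the top between 110.6 and 120.1 and DUSP4 at the bottom between 0.220 and 0.304, and the distance between genes is far larger than that between groups.

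None of the 10 genes passed the test for a difference between A20 siRNA and control siRNA (edgeR's quasi-likelihood test, Benjamini-Hochberg adjusted p under 0.05 over 13412 tested genes). DESeq2 and limma-voom also called none, although DESeq2 gave DUSP4 no adjusted p. Under all 18 alternatives together, DUSP5 passed the threshold in 4, as given below. Of all tested genes, 1.25% were called. At an unadjusted p under 0.05 there were 4 of the 10, DUSP5, DUSP6, SPRY1 and SPRED1, all with lower means after A20 siRNA, where 16.2% of all tested genes were under it. The log2 fold changes of the 10 genes ran from -0.20 to 0.03 with a median of -0.06, and 8 of the 10 were below 0. Over all tested genes the median was 0.0027 and 48.4% were below 0. The CPM ranges of the groups did not overlap for 1 gene, DUSP5, and did not overlap for 7.61% of all tested genes. Among all tested genes 0.634% were called higher, and the ranges were apart with A20 siRNA lower in 3.9% and higher in 3.71%. Summed over the 10 genes, the level was 1398 ± 11.7 CPM with control siRNA and 1392 ± 31.4 CPM with A20 siRNA (SD, n = 4 each). This sum is mostly SPRY4, which took 52.3% to 55.3% of it.

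The promoters of the genes with an unadjusted p under 0.05 are shown first, since these genes came nearest to a difference. RefSeq start sites (GRCh38.p14) were given for 6 of the 10 genes, DUSP6 and SPRED1 among them with 1 start each and SPRY1 with 2, of which the outermost is shown. DUSP5 was not among them. Each run is the 250 bases before the start, 5′ to 3′ on the gene's strand. The DUSP6 run is chr12:89352502-89352751 (minus strand), the SPRY1 run is chr4:123396545-123396794 (plus strand) and the SPRED1 run is chr15:38252586-38252835 (plus strand).
DUSP6: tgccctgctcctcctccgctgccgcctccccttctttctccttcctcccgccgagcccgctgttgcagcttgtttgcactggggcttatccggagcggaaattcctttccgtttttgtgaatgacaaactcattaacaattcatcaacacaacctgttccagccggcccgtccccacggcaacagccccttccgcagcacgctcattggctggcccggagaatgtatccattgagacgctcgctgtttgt
SPRY1: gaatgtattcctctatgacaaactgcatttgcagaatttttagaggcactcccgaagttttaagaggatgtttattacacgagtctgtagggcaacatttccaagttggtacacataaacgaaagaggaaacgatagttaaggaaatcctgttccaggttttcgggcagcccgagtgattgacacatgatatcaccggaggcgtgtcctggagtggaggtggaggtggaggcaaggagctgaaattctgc
SPRED1: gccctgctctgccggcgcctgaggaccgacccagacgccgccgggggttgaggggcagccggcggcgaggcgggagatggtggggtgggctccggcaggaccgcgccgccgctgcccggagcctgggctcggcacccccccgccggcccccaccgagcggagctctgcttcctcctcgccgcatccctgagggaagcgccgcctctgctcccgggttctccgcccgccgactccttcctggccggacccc
The runs were searched on both strands for CCGGAA, a core of the sites that ETS factors such as ETV4 and ETV5 recognise, and for TGACTCA, the AP-1 site, which does not overlap it; matches would be in capitals. Neither occurred in these runs. CCGGAA was found once in the second SPRY1 promoter, 67 bases before its start, and once in a SPRY2 promoter, 142 bases before its start, making 2 of the 10 promoters of these genes, against 14.5% of 35116 promoters of the same length. TGACTCA was in none of the 10, against 4.20% of all. A match is a description of these letters and not a binding site.

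Among the phosphatases, DUSP5, a nuclear phosphatase that acts on ERK, had the smallest p of the 10 genes. It was at 112.8, 115.0, 114.5 and 112.5 CPM in control replicates 1 to 4, and at 108.1, 103.4, 108.6 and 105.9 CPM with A20 siRNA. In bulk RNA, fewer cells with the transcript and less transcript per cell cannot be told apart. The highest value after A20 siRNA lay under the lowest control value. The means were 113.7 ± 1.26 and 106.5 ± 2.40 CPM (SD, n = 4 each). On the log2 scale the difference was -0.09 (standard error 0.02, 95% interval -0.14 to -0.04), with an unadjusted p of 0.00109 and an adjusted p of 0.0595 from edgeR. Its call turned with the setting, and it passed the threshold in 4 of 18 alternatives, with adjusted p-values from 0.0221 to 0.179 over all of them. The adjusted p was 0.0335 without a low-count filter, and 0.0221 without control replicate 1, the library with the highest length trend in its group. Relative to the mean of all samples, longer genes had higher counts in 3 of 4 A20 siRNA samples and lower counts in 3 of 4 control samples, with Spearman's rho between deviation and exonic length from -0.082 to 0.172 and from -0.203 to 0.080. The part of this trend in the DUSP5 result was not tested as a cause. DUSP5 has the shortest exonic length of the 10 genes, 2535 bases, and after correction of each library for length and GC content its log2 fold change was -0.08 (adjusted p = 0.111). That correction was centred to keep the library scaling, a step taken after the counts from the uncentred form had been seen, and with the uncentred form the value was -0.10 (adjusted p = 0.0583). DUSP5 (ENSG00000138166.5) lies on chromosome 10 from 110497907 to 110511533 (GRCh38).

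DUSP6, the cytoplasmic ERK phosphatase and the best known readout of ERK activity, was at 92.1, 94.8, 88.1 and 94.3 CPM with control siRNA. With A20 siRNA it was at 86.0, 84.9, 90.4 and 89.4 CPM. Control replicate 3 fell between the A20 siRNA values, so the groups overlapped. The log2 fold change was -0.08 (standard error 0.03, 95% interval -0.14 to -0.01, adjusted p = 0.201). The gene (chromosome 12, 89347235 to 89352501) shares 1105 bases, 28.6% of its exonic length, with an antisense transcript, ENSG00000274021, which had 1 to 6 reads per sample. The strand setting of the counting is not given in the sources used here, so how reads in the shared bases were counted is unknown.

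DUSP4, a nuclear phosphatase with several MAPK substrates, was the least abundant of the 10 genes. It had 34 to 59 reads per sample, or 1.60, 1.80, 1.81 and 2.11 CPM with control siRNA and 1.72, 1.65, 2.21 and 1.60 CPM with A20 siRNA. The groups overlapped through most of their range. At this depth counting alone gives a coefficient of variation of 14.4%, and the observed values were 11.6% and 15.7%. The 95% interval of the log2 fold change ran from -0.34 to 0.29, so differences within that range in either direction are compatible with these counts. DUSP4 lies on chromosome 8 from 29333064 to 29350684.

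SPRY4, a Sprouty protein that dampens receptor signaling to ERK, was the most abundant of the 10 genes with 16746 to 25037 reads per sample. It was at 742.1, 724.8, 749.7 and 746.0 CPM with control siRNA and at 730.1, 740.4, 767.8 and 787.3 CPM with A20 siRNA. The 2 highest samples, replicates 3 and 4, and the second lowest, replicate 1, all had A20 siRNA, so the groups overlapped. The log2 fold change was 0.03 (standard error 0.02, 95% interval -0.02 to 0.08, adjusted p = 0.587). Its spread between samples was above counting error, with coefficients of variation of 1.48% and 3.44% against 0.709% from counting. SPRY4 lies on chromosome 5 from 142310427 to 142326455.

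SPRY2, an inhibitor of the same step, was at 20.95, 23.1, 21.9 and 23.3 CPM with control siRNA and 21.2, 20.9, 20.4 and 22.2 CPM with A20 siRNA. The ranges overlapped, and the log2 fold change was -0.07 (standard error 0.05, 95% interval -0.17 to 0.02, adjusted p = 0.467). SPRY1, a further paralog (chromosome 4, 123396795 to 123403760), had the largest fitted difference of the 10 genes. It was at 6.98, 8.30, 9.07 and 7.78 CPM with control siRNA and at 6.47, 7.13, 7.33 and 7.10 CPM with A20 siRNA. Control replicate 1 fell among the A20 siRNA samples and the other 3 control samples lay above all of them. The log2 fold change was -0.20 (standard error 0.08, 95% interval -0.37 to -0.03, adjusted p = 0.238), resting on 151 to 235 reads per sample. Without control replicate 1 it was -0.27 with an adjusted p of 0.0428, and across the fits that left out 1 sample it ran from -0.27 to -0.14. 

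SPRED1, an adaptor that brings neurofibromin to RAS and so limits RAS activity, was at 81.8, 82.7, 85.9 and 79.5 CPM with control siRNA and 77.4, 79.0, 80.7 and 79.4 CPM with A20 siRNA. Control replicate 4 lay within the A20 siRNA range, and the log2 fold change was -0.06 (standard error 0.03, 95% interval -0.12 to -0.0021, adjusted p = 0.292). Its paralog SPRED2 was at 129.4, 126.0, 132.7 and 129.3 CPM with control siRNA and at 129.5, 125.1, 132.8 and 133.8 CPM with A20 siRNA. The A20 siRNA samples spanned the whole control range. The log2 fold change of SPRED2 was 0.0095 (95% interval -0.04 to 0.06, adjusted p = 0.900).

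The transcription factors were close between groups. ETV4 was at 74.9, 75.8, 74.0 and 74.5 CPM with control siRNA and at 74.7, 71.2, 72.9 and 69.5 CPM with A20 siRNA. A20 siRNA replicate 1 lay within the control range and the other 3 were below it, with a log2 fold change of -0.05 (standard error 0.03, 95% interval -0.11 to 0.0073, adjusted p = 0.380). ETV5 was at 129.98, 132.5, 134.1 and 133.1 CPM with control siRNA and at 132.5, 128.8, 129.2 and 128.7 CPM with A20 siRNA. Again only A20 siRNA replicate 1 reached into the control range. The log2 fold change was -0.03 (standard error 0.02, 95% interval -0.07 to 0.02, adjusted p = 0.603). In the later annotation used here ETV5 shares 164 exonic bases with DGKG on the same strand and ETV4 shares 68 with DHX8 on the opposite strand, which is 2.84% and 1.93% of their exonic lengths.

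**Figure D2:**
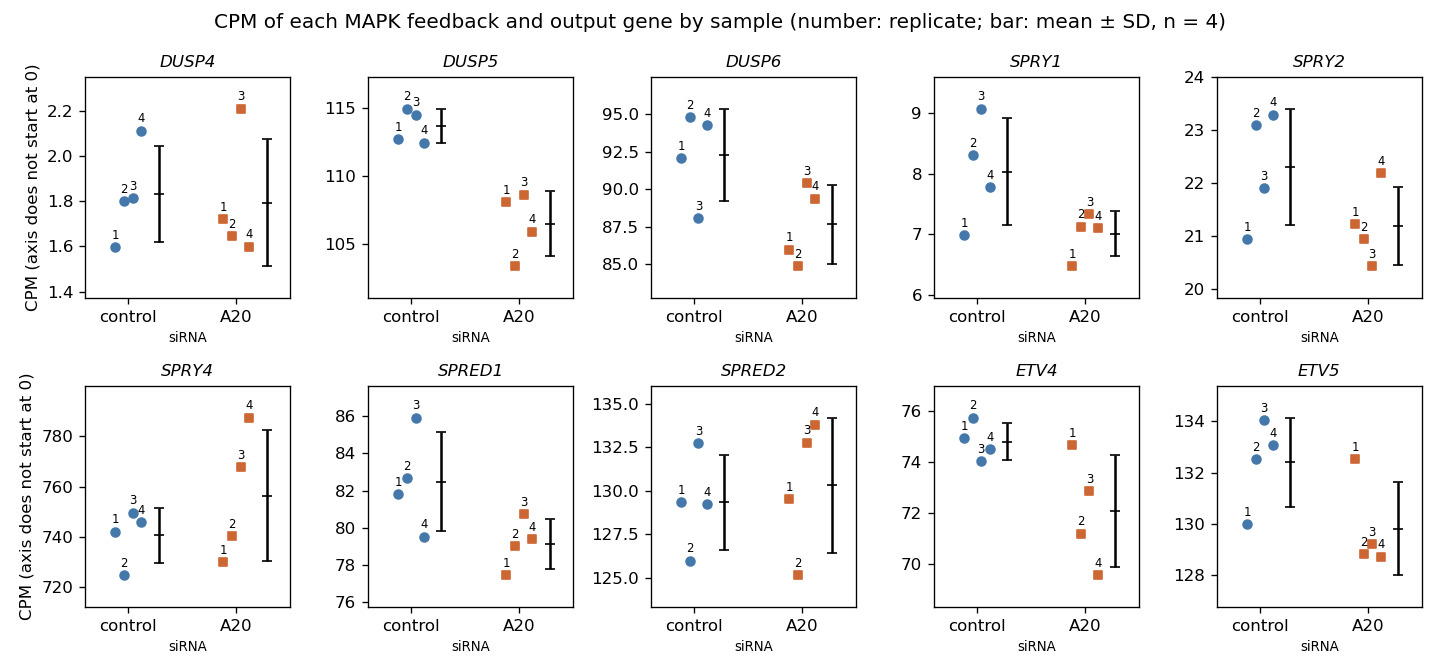
CPM of each of the 10 genes by sample, 1 panel per gene with its own axis that does not start at 0; numbers are replicates and bars are the mean ± SD (n = 4). The groups are separate for DUSP5, at 112.5 to 115.0 in control samples, against 103.4 to 108.6 after A20 siRNA, and overlap for the other 9 genes.

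Within each group, A20 siRNA replicate 3 was above its group mean for 8 of the 10 genes and A20 siRNA replicate 2 for 1 of the 10, with median deviations of 0.028 and -0.024 on the log2 scale. Among the control samples, replicate 1 was above the mean for 3 genes and replicate 2 for 7, with median deviations of -0.012 and 0.010. These shifts are smaller than the differences of DUSP5 and DUSP6 between groups and of the order of that of ETV5. By family, the DUSP sum was 207.8 ± 3.10 CPM with control siRNA and 196.0 ± 4.70 CPM with A20 siRNA, the ETV sum 207.2 ± 1.55 and 201.9 ± 3.88, the SPRED sum 211.8 ± 4.70 and 209.5 ± 4.64, and the SPRY sum 771.0 ± 10.8 and 784.6 ± 26.6 (SD, n = 4 each). The DUSP sums did not overlap between groups, at 204.4 to 211.6 CPM and 189.9 to 201.3 CPM. They are almost wholly DUSP5, which did not overlap alone either, and DUSP6, which did, so they are no separate result.

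Transcripts of the RAS to ERK cascade were also detected. Of 18 genes from adaptors and RAS to ERK, 18 were tested, 1 was lower (0.611% of all tested genes were called lower) and 0 were higher. The lower gene was MAP2K1, which encodes the ERK kinase MEK1. It was at 120.1, 125.9, 122.2 and 126.5 CPM with control siRNA and at 115.2, 114.7, 115.1 and 113.1 CPM with A20 siRNA. The groups did not overlap. MAP2K1 fell by 0.11 on the log2 scale (standard error 0.02, 95% interval -0.16 to -0.06, adjusted p = 0.0337). The call was lost in 5 of the 8 fits that left out 1 sample, those without control replicates 2, 3 or 4 or A20 siRNA replicates 3 or 4, with adjusted p-values of 0.0774 to 0.126. With the length and GC correction the difference was -0.11 (adjusted p = 0.0211). Outside the rule for named genes, and chosen after their values were seen, its partner MAP2K2 had a log2 fold change of -0.03 (adjusted p = 0.681), and MAPK3, which encodes an ERK, had 0.03 (adjusted p = 0.625). The groups also did not overlap for RASA1, a RAS inhibitor (log2 fold change 0.07, adjusted p = 0.175), which is named after its values were seen. The median log2 fold change of the 18 genes was 0.03.

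**Figure D3:**
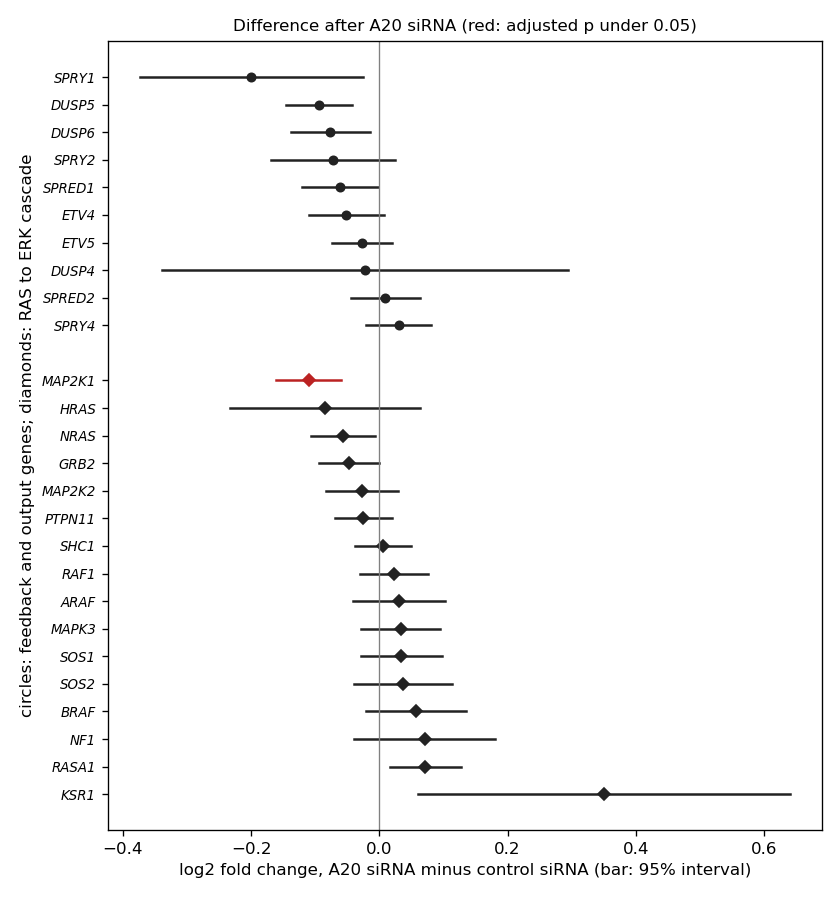
Log2 fold change of A20 siRNA against control siRNA with its 95% interval from edgeR for the 10 feedback and output genes (circles) and for cascade genes (diamonds), with red for an adjusted p under 0.05. MAP2K1 at -0.11 is the only red gene, and the intervals of DUSP4 and KSR1 are wide.

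Of 7 other MAPK phosphatases, 6 were tested and 0 were called, with 1 at an unadjusted p under 0.05. Over all tested genes, 1.25% were called and 16.2% had an unadjusted p under 0.05. DUSP7, a cytoplasmic ERK phosphatase like DUSP6, ranged from 117.9 to 121.4 CPM in control samples and reached 121.1 to 126.6 CPM after A20 siRNA, and its log2 fold change was 0.05 (95% interval 0.0022 to 0.10, adjusted p = 0.288). DUSP2, an inducible nuclear phosphatase, had a log2 fold change of -0.08 (adjusted p = 0.472). DUSP9 had no count in any sample. Of the paralogs, SPRED3 and ETV1 were tested, with log2 fold changes of 0.03 and -0.06 (adjusted p = 0.869 and 0.566), and SPRY3 had at most 1 read. Among 11 further transcripts that ERK induces, 10 were tested and 0 were called. Of the 10, 8 had a log2 fold change below 0, against 48.4% of all tested genes, and their median was -0.02. VGF, a secreted neuropeptide precursor, had 18.03 to 19.3 CPM in control samples, against 16.3 to 17.7 CPM after A20 siRNA (log2 fold change -0.12, unadjusted p = 0.0201, adjusted p = 0.210), and was the only one of these with an unadjusted p under 0.05. KCNN4, a potassium channel, was at 0.0076 (adjusted p = 0.939). EPHA4 had at most 1 read per sample.

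**Figure D4:**
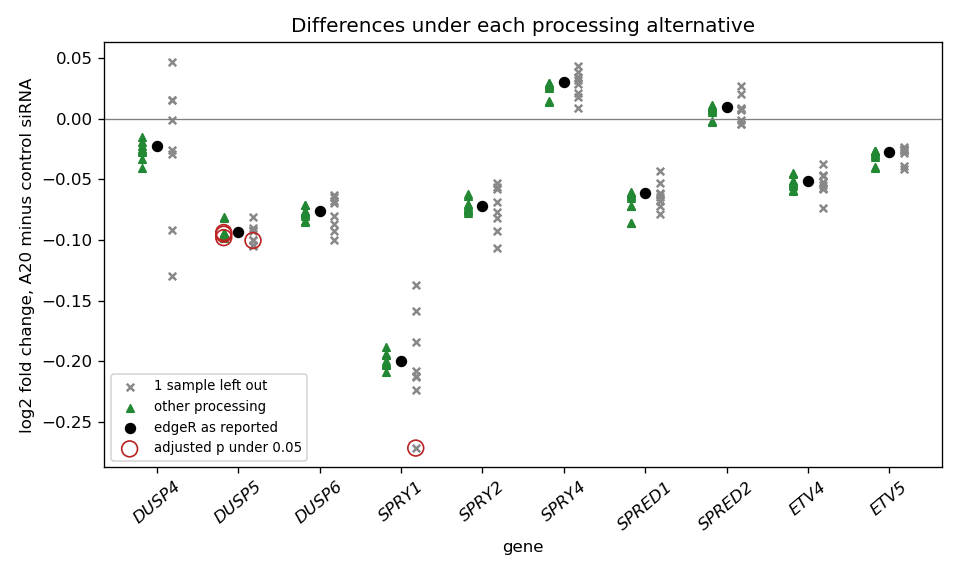
Log2 fold change of each gene as reported (black circles), under other processing (triangles) and with 1 sample left out (crosses), with red rings for an adjusted p under 0.05. Rings appear for DUSP5 and SPRY1 alone, and the crosses of DUSP4 run from -0.13 to 0.05 on both sides of 0.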

How the data were processed

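RNAseq of poly(A) RNA was performed on 8 RKO samples. Per the paper's methods and the submitters' processing notes, the authors trimmed single reads with Trimmomatic, mapped them to GRCh38.p7 with STAR and deposited raw counts of uniquely mapping reads per gene of a GENCODE annotation. The GENCODE release and strand setting are not given in the sources used here. Groups and replicate numbers came from the sample titles.

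Counts of 57992 genes were matched by Ensembl identifier without version to GENCODE release 44 on GRCh38 (56948 matched), which gave symbols, coordinates, exonic length and GC content. Printed coordinates are from release 44. The filterByExpr function of edgeR (4.0.16, under R 4.3.3) kept 13412 genes at a minimum count of 10. TMM scaling and edgeR's quasi-likelihood test followed, with group as the only term, adjusting p-values over all tested genes by Benjamini-Hochberg with a threshold of 0.05. Each standard error is the fold change divided by the root of its F value. The genes and lists were chosen with earlier results of these data known. Named genes are the 10 genes, TNFAIP3 and, from each of 4 pathway lists, every called gene or else the gene of smallest p in each direction. MAP2K2, MAPK3, RASA1, NRAS and KSR1 are named outside this rule, after their values were seen, and PTPN11, PHLDA1 and IER3 for a sample far from the others. Alternatives were RLE scaling, all genes with a count, only genes reaching 10 counts in each of the 8 samples, DESeq2 1.42.0, limma-voom (limma 3.58.1), the replicate number as a block, a loess correction of each library for exonic length and GC content (span 0.5), block and correction together, and each sample left out. The correction was first run uncentred. After its counts were seen, each library's trend was centred on its median so that TMM scaling was kept. Both forms are given. Values of some list genes are not reported here. Scripts were tested on simulated data. Samples of the same group varied beyond counting error (chi-square per degree of freedom 1.32 to 3.71), and the biological coefficient of variation was 2.73%.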

Additional observations from a re-analysis of the deposited data

Results flagged for a closer look

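In 94 groups of 4 samples, 5 held a sample far from the other 3, where chance gives 4.7. ETV5 with A20 siRNA was at 132.5 CPM in replicate 1 against 128.7 to 129.2 CPM in the others, a gap of 0.873 of the group's range. TNFAIP3 with A20 siRNA was at 3.01 CPM in replicate 2, below 3.40 to 3.47 CPM in the others. With control siRNA, PTPN11 was at 485.2 CPM in replicate 1 (the next at 470.9), PHLDA1 at 586.9 CPM in replicate 3 (the next at 564.9), and IER3 at 1.08 CPM in replicate 3 (the next at 0.783).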

How the results depend on the processing

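Of the 10 genes, 8 kept their direction under all 18 alternatives. DUSP4 changed sign in fits with 1 sample left out, and SPRED2 in such fits and with the uncentred length and GC correction. Against 0 of the 10 genes as reported, 1 was called lower when the low-count filter was dropped, 1 under the replicate block and 1 under block and uncentred correction, DUSP5 each time. With 1 sample left out 0 to 2 were called, the 2 being DUSP5 and SPRY1 in the absence of control replicate 1. Of the 39 pathway genes, 0 to 2 were lower and 0 to 1 higher with 1 sample left out. In the absence of control replicate 1 the lower genes were MAP2K1 and NRAS. Over all genes, 82 were lower and 85 higher as reported. Dropping the filter gave 310 and 314, and the replicate block 212 and 262. The length and GC correction gave 140 lower as centred and 264 lower uncentred, and with the block 244 and 215 as centred and 426 and 178 uncentred. The uncentred form was run first. Centring was chosen after these counts were seen, because the uncentred form moved the median of all genes from 0.0027 to -0.016 on the log2 scale, and with the block this choice ended the call of DUSP5 (adjusted p = 0.0423 uncentred, 0.0834 centred). Leaving out 1 sample gave 6 to 430 lower and 6 to 567 higher genes, the most for control replicate 1 and the fewest for A20 siRNA replicate 3. What caused these shifts was not tested. Same-numbered samples deviated together by correlations of -0.0091 to 0.074, and 4 of 8 samples correlated best with their own number. The numbers were not taken to pair the samples in the main fit, but these values do not exclude a pairing. The call of DUSP5 depends on this choice. Under the replicate block the adjusted p of DUSP5 was 0.0440. DESeq2 gave TNFAIP3 (log2 fold change -0.72) and DUSP4 no adjusted p. Depth limits DUSP4, at 34 to 59 reads per sample. The 95% intervals of the other 9 genes lay within -0.37 and 0.08.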
